A study of Homo sapiens with 3 samples.

Results

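The regions described here are 1529 intergenic sites from the Fra-2 peak list of MDA-MB-231 cells that have no counterpart in the Fra-1 list and carry the AP-1 element, out of 13003 Fra-2 peaks. They were chosen by overlap, position and sequence. A member is a Fra-2 peak on chromosomes 1 to 22 that shared no base with a Fra-1 peak, lay more than 1 kb from every protein-coding or lncRNA transcription start site (TSS), lay outside all protein-coding gene bodies, and held the 7-base element TGACTCA or TGAGTCA within 100 bp of its centre. In peaks narrower than this span, the element could lie beyond the edge of the peak. Of 12695 Fra-2 peaks on these chromosomes, 4912 (38.7%) shared no base with a Fra-1 peak. Of those, 4156 lay more than 1 kb from a TSS and 2086 also outside protein-coding genes, 1544 of which held the element. Of the 1544, 15 near long unsequenced runs of the assembly were dropped, and 360 other peaks met every condition but the element.

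The series is a chromatin immunoprecipitation (ChIP-seq) study with 3 samples: a Fra-1 ChIP, a Fra-2 ChIP and an input DNA. All came from MDA-MB-231, a human cell line derived from a triple-negative breast tumour of the basal B type, in medium with 10% fetal calf serum and with no treatment or genetic change named. The labels mention 2 independent replicates, but only 1 list of peaks was given for each antibody, and whether a list pools its replicates is not given in the sources used here. No value below therefore has a replicate error. Intervals are at the 95% level, take each peak as independent of its neighbours and include no error other than that of counting. The lists give the start and end of each peak, with starts on a grid of 50 bp. They hold no height, score or p-value, so that read depth is unknown. The Fra-1 signal at sites missing from the Fra-1 list could therefore not be read. The Fra-1 list had 9998 peaks and the Fra-2 list 13003. Positions are on hg19.

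Fra-1 and Fra-2 are encoded by FOSL1 and FOSL2 and belong to the Fos family of basic leucine zipper proteins. Fos proteins bind DNA as dimers with Jun proteins, and these AP-1 dimers recognise the TPA response element, a near-palindrome that reads TGACTCA on one strand and TGAGTCA on the other. Each subunit contacts one arm of the palindrome, and the bases just outside it can modify the affinity. AP-1 sites away from promoters often mark enhancers, and in breast cancer lines of the basal B type AP-1 frequently works together with TEAD proteins.

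The sequences just around the element are shown first, because the bases beside the element differed between Fra-2-only sites and sites in both lists. Each is read in the direction in which the element spells TGACTCA, 17 bases on either side, with the element in capitals, and is named by the nearest protein-coding gene. The 6 widest intergenic Fra-2-only peaks carried these copies nearest their centres.
CDYL chr6:4688433-4688473 (-): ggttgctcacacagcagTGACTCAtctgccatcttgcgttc
DAW1 chr2:228728113-228728153 (+): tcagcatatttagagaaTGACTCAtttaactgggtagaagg
MB chr22:35985537-35985577 (+): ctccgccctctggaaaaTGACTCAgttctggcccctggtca
BDH1 chr3:197194118-197194158 (+): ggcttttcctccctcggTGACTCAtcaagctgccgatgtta
NENF chr1:212659434-212659474 (+): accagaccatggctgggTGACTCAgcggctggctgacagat
EPS8L3 chr1:110364893-110364933 (-): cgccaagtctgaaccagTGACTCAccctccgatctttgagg
All 6 have A or G before the element, and 4 of the 6 have C or T after it. For comparison, these are the copies of the 6 widest intergenic peaks found in both lists, taken from the Fra-2 list.
TOP1 chr20:39632137-39632177 (-): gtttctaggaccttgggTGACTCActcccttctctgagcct
P3H2 chr3:189655556-189655596 (-): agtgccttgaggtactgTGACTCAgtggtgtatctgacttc
PTPRU chr1:30043052-30043092 (+): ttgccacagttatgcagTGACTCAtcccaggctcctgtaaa
HROB chr17:42215497-42215537 (+): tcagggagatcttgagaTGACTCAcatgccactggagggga
NANOS3 chr19:13957909-13957949 (+): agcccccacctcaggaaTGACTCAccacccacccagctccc
SOX13 chr1:204026971-204027011 (-): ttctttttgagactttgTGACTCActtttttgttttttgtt
All 6 of these also have A or G before the element and 5 have C or T after it, so the difference between the classes does not show in these few sequences and rests on the counts over all peaks given next. The last set comes from the 6 widest intergenic peaks of the Fra-1 list that shared no base with a Fra-2 peak.
HMGA2 chr12:66028848-66028888 (-): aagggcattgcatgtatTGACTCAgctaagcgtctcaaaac
DNAH5 chr5:13664721-13664761 (+): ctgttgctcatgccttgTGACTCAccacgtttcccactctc
SPARC chr5:151086696-151086736 (+): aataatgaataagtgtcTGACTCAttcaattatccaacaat
CAP1 chr1:40481061-40481101 (+): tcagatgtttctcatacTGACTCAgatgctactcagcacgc
DCLK3 chr3:36743489-36743529 (+): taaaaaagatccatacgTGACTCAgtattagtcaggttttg
ACTR3 chr2:114780001-114780041 (+): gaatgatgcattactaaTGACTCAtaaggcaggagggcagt
In the Fra-1-only set, 3 of the 6 copies have T or C before the element.

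Most intergenic Fra-2-only peaks had a purine (A or G) directly before TGACTCA and a pyrimidine (C or T) directly after it. These purine and pyrimidine flanks were present in 1015 of 1529 peaks (66.4%, exact binomial interval 64.0 to 68.8). Among 2257 intergenic peaks with the element that were in both lists, 1075 (47.6%, 45.6 to 49.7) had them. The share was 1.39 times as high in the Fra-2-only peaks (1.32 to 1.47; two-sided Fisher exact test, adjusted p = 7.67e-29, Benjamini-Hochberg over 51 tests). The strictest form, ATGACTCAT, was in 333 Fra-2-only peaks (21.8%) and 319 shared peaks (14.1%), a ratio of 1.54 (1.34 to 1.77; Fisher exact test, adjusted p = 1.05e-08). Among peaks with a single copy in the window, where the flanks are not ambiguous, the shares with purine and pyrimidine flanks were 68.7% and 51.3% (Fisher exact test, adjusted p = 6.62e-21).

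Base by base, the position before the element was A in 46.0% of the Fra-2-only peaks, G in 36.7%, C in 15.5% and T in 1.83%. Behind the element T made up 48.9%, C 31.5%, G 16.9% and A 2.68%. Shared peaks had T before in 5.18% and A after in 6.25%. In 220882 copies of the element that lay in no peak of the same intergenic sequence, T came before 27.3% and A after 23.6%. Peaks with T before or A after the element were thus few: 69 Fra-2-only peaks (4.51%, 3.53 to 5.68), against 249 shared peaks (11.0%, 9.77 to 12.4) and 45.1% of copies in no peak. The pair with both, TTGACTCAA, surrounded the central copy of 0 Fra-2-only peaks and of 9 shared peaks. The base 1 further upstream was G in 40.3% of Fra-2-only peaks, 31.3% of shared peaks and 18.1% of copies in no peak. These single-position shares are given as a description and were not tested.

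Counted from the genome, the same intergenic space of 1361.92 Mb held 226017 copies of the element. A Fra-2-only peak covered 1586 of them (0.702%), a peak of either list that overlapped the other list 3144 (1.39%) and a Fra-1-only peak 405 (0.179%). Copies with purine and pyrimidine flanks, 52484 in all, were covered by Fra-2-only peaks in 1.93% (1.81 to 2.05) and by shared peaks in 2.58% (2.45 to 2.72). Copies with any other flanks were covered in 0.331% (0.305 to 0.360) and 1.03% (0.983 to 1.08). Shared coverage thus stood at 1.34 times the Fra-2-only coverage for the first kind of copy and at 3.11 times for the second. Every copy under a peak was counted, and shared peaks were wider and more often held a second copy. The coverages were not adjusted for width or number of copies. The extremes for Fra-2-only peaks were ATGACTCAT, with 2.38% of 13843 copies, and TTGACTCAA, with 3 of 12738 copies (0.0236%, 0.00486 to 0.0688). Coverage by Fra-1-only peaks was 0.189% for purine and pyrimidine flanks and 0.176% for other flanks, values whose intervals overlap.

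Width is tied to the choice of members, since a wide peak has more bases to share with the other list, and is described without a test. Of the Fra-2-only peaks, 581 (38.0%) were 100 bp wide, the narrowest in the list, 489 (32.0%) were 150 bp, 308 (20.1%) were 200 bp, 118 were 250 bp, 27 were 300 bp, 5 were 350 bp and 1 was 400 bp. Their median was 150 bp, against 200 bp in shared intergenic peaks, where the widest reached 1500 bp. The flank pattern was present at every width. Purine and pyrimidine flanks were found in 60.4% of the Fra-2-only peaks of 100 bp, 67.3% of those of 150 bp, 70.8% of those of 200 bp and 78.0% of those of 250 bp. Shared peaks of the same widths had 40.5%, 46.1%, 45.0% and 50.5%. The flank share was therefore higher in wide than in narrow Fra-2-only peaks, while the shared class, which is wider, had the lower share at each of these widths.

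**Figure D1:**
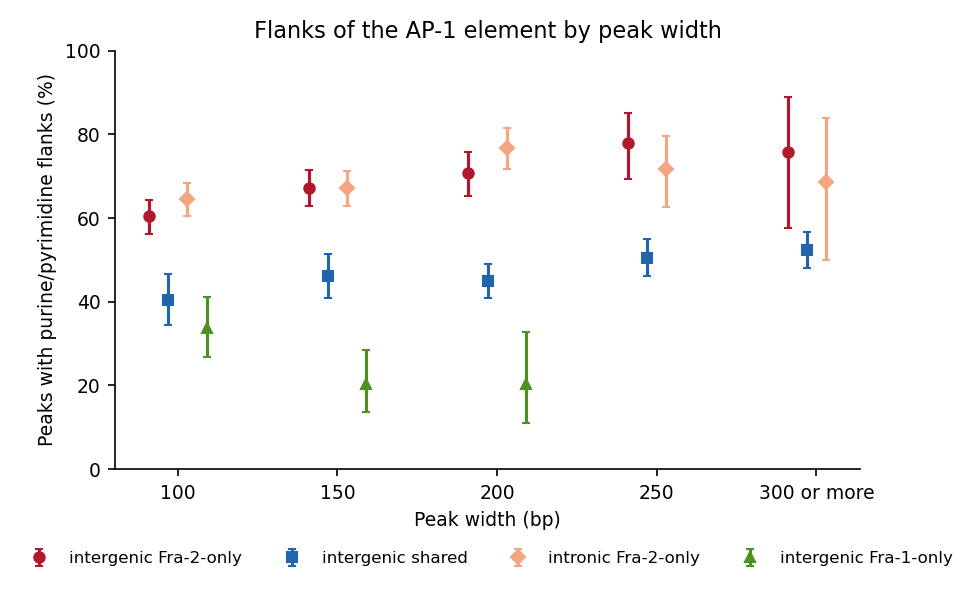
Share of peaks (%, vertical axis) whose element has A or G before and C or T after it, by peak width in bp, for 4 classes of peaks with the element. Points are shares with 95% exact binomial intervals, shown where a class had at least 20 peaks. Intergenic and intronic Fra-2-only peaks lie between 60.4% and 78.0%, shared intergenic peaks between 40.5% and 52.3%.

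A single copy of the element was the rule at Fra-2-only sites, with 1358 of 1529 (88.8%). A second copy within 100 bp of the centre was present in 171 of 1529 peaks (11.2%, 9.65 to 12.9) and in 580 of 2257 shared peaks (25.7%, 23.9 to 27.6), a ratio of 0.435 (0.372 to 0.510; Fisher exact test, adjusted p = 2.72e-28). Among peaks 100 or 150 bp wide the shares were 10.8% and 17.4%, and the ratio of 0.624 still passed the test (Fisher exact test, adjusted p = 0.00100). Both classes exceeded the genome at large: of 214403 intergenic tiles as long as these windows and with at least 1 copy, 2.09% held 2 or more. In the Fra-2-only peaks 163 windows held 2 copies, 7 held 3 and 1 held 4, while a shared window held up to 8. The 2 windows printed next are the exception among the Fra-2-only peaks. They are shown because each holds 3 copies, in capitals, and both peaks were 200 bp wide.
DMXL1 chr5:118371901-118372101 (+): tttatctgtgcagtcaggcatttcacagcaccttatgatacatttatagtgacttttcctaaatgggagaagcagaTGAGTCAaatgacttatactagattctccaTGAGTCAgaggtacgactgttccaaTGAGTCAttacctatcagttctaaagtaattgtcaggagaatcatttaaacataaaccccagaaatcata
ZNRF4 chr19:5435051-5435251 (+): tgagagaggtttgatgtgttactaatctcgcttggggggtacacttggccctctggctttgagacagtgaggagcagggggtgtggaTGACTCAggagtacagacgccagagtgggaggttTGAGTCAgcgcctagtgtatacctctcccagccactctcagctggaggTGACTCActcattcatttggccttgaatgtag

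The element was most often near the peak centre, though not always inside the peak. The window of 100 bp to either side reached past the edges of narrow peaks. Requiring a copy anywhere in the peak gave 1415 member regions, against 1529 in the main run. The copy nearest the centre was a median of 21 bp away (quartiles 9 and 35 bp), and 900 peaks (58.9%) had it within 25 bp. Shared peaks had 1347 of 2257 (59.7%) in that range, a ratio of 0.986 (0.935 to 1.04; Fisher exact test, adjusted p = 0.744).

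**Figure D2:**
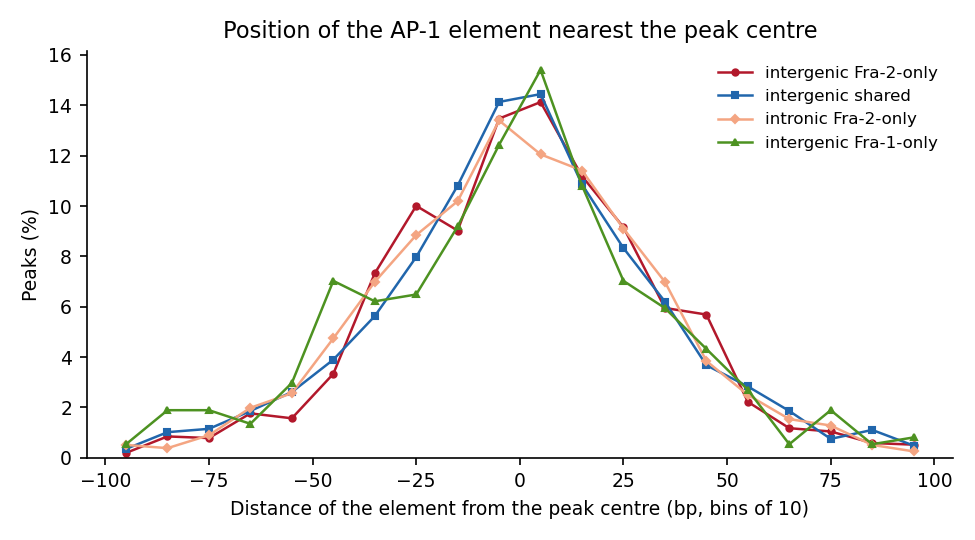
Position of the copy of the element nearest the peak centre in bins of 10 bp (horizontal axis, bp from the centre on the plus strand), as a share of peaks (%, vertical axis) in the 4 classes. Each line is 1 class. The curves peak within 10 bp of the centre in all 4 classes, with 13.5% and 14.1% of the intergenic Fra-2-only peaks in the bins on either side of it.

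Other factors' consensus sequences were looked for in the same windows, on either strand. TEAD proteins, the DNA-binding partners of YAP and TAZ, recognise GGAATGC or GGAATGT. That consensus was in 132 Fra-2-only peaks (8.63%) and 273 shared peaks (12.1%), a ratio of 0.714 (0.586 to 0.869; Fisher exact test, adjusted p = 0.00335), and in 5.25% of all 6775560 intergenic tiles of the same length. The TEAD consensus was in 4.84% of the tiles that held the element. Among peaks 100 or 150 bp wide, 1070 Fra-2-only and 633 shared peaks were left. The ratio there was 0.703 and no longer passed (Fisher exact test, adjusted p = 0.0535). In windows of 40 to 50% GC, with 768 and 1136 peaks left, it was 0.715 and did not pass (Fisher exact test, adjusted p = 0.0576). The ratio itself thus changed little in these smaller sets. The forkhead (FOX) consensus TGTTTAC lay in 49 Fra-2-only peaks (3.20%) and in 123 shared peaks (5.45%). It was in 3.18% of all tiles and in 2.83% of the tiles that held the element. Its ratio of 0.588 (0.425 to 0.814) passed (Fisher exact test, adjusted p = 0.00455), but among peaks 100 or 150 bp wide it was 0.734 (adjusted p = 0.500) and outside lncRNA genes 0.661 (adjusted p = 0.143). Where the TEAD consensus was present, it lay a median of 44.5 bp from the element in the Fra-2-only peaks and 46 bp in the shared peaks. The FOX consensus lay a median of 43 bp from the element in the Fra-2-only peaks (quartiles 20 and 76 bp). One of the wider Fra-2-only peaks with it is printed as an example, with the element and the FOX consensus in capitals. Here the consensus lies at the edge of the window, farther from the element than the upper quartile.
PER1 chr17:8042801-8043001 (+): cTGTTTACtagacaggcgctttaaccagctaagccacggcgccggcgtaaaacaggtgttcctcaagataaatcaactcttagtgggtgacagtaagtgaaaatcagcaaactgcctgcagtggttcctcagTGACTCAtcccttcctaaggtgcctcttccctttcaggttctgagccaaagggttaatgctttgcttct

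The remaining consensus sequences did not pass against shared peaks. RUNX (TGTGGTT) was in 91 Fra-2-only peaks (5.95%) and 6.96% of shared peaks, and in 3.95% of tiles. The sequence AGATAA, bound by factors of the GATA family, was in 9.35% and 9.70%, below the 15.5% of tiles. The E-box CAGGTG, a site of ZEB and SNAIL repressors, was in 13.0% and 12.9%, and TTGCNNAA, a loose C/EBP consensus, in 11.0% of both. The cyclic AMP response element TGACGTCA, the related element with 1 more base between its arms, was in 8 Fra-2-only peaks (0.523%, 0.226 to 1.03) and 5 shared peaks (0.222%, 0.0720 to 0.516), a ratio whose interval ran from 0.774 to 7.21. ETS (CCGGAAG) was in 13 (0.850%) and 35 peaks (1.55%), with an interval of the ratio from 0.291 to 1.03. SP/KLF (GGGCGGG) was in 34 (2.22%) and 35 (1.55%). Shares of all tiles were 13.7% for the E-box, 11.2% for TTGCNNAA, 0.0606% for TGACGTCA, 0.385% for CCGGAAG and 0.678% for GGGCGGG. The tiles were not matched to the peaks for GC content. A match is a description of these letters and not a bound site. In base composition the classes were close, with a median GC content of 47.3% in Fra-2-only and 46.8% in shared windows, and 85.2% and 83.3% with at least 1 CpG. GC content of at least 50% was found in 36.1% and 34.5%, against 14.4% of tiles. Among peaks 100 or 150 bp wide, both passed: GC of at least 50% with a ratio of 1.25 (Fisher exact test, adjusted p = 0.0222) and CpG with 1.08 (adjusted p = 0.00443).

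Over all 18 features compared with shared intergenic peaks, 8 (44.4%) passed, 2 of them higher and 6 lower in the Fra-2-only peaks. The nearest relatives were Fra-2-only peaks with the element in introns of protein-coding genes, 1560 in number. No feature (0%) of 16 separated the intergenic from the intronic ones by Fisher exact tests after adjustment, and 1 did before it (p = 0.0461), CpG presence at 85.2% and 87.6%. Purine and pyrimidine flanks were in 68.3% of the intronic peaks, and the ratio of intergenic to intronic was 0.971 (0.925 to 1.02). A second copy of the element was in 11.2% and 9.68%, with an interval of the ratio from 0.939 to 1.42, and the TEAD consensus in 8.63% and 7.69%, with an interval from 0.886 to 1.42.

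The mirror class, 370 intergenic Fra-1 peaks with the element and no Fra-2 peak, stood further off. It is drawn from the other list and another antibody. Of 17 features 6 (35.3%) passed, 4 higher and 2 lower in the Fra-2-only peaks. Purine and pyrimidine flanks were in 99 Fra-1-only peaks (26.8%, 22.3 to 31.6), near the 22.6% of copies in no peak, so that the Fra-2-only share was 2.48 times as high (2.09 to 2.95; Fisher exact test, adjusted p = 5.93e-42). T before or A after the element occurred in 96 of them (25.9%). ATGACTCAT was in 27 (7.30%), and the Fra-2-only share was 2.98 times that (2.05 to 4.34; Fisher exact test, adjusted p = 4.84e-11). GC content of at least 50% was found in 65 (17.6%), with a ratio of 2.06 (1.63 to 2.59; Fisher exact test, adjusted p = 1.77e-11). CpG presence, at 77.6%, gave a ratio of 1.10 (1.04 to 1.16; Fisher exact test, adjusted p = 0.00335), a call that was lost among peaks 100 or 150 bp wide (1.07, adjusted p = 0.103), in windows of 40 to 50% GC (1.06, adjusted p = 0.410) and outside lncRNA genes (1.08, adjusted p = 0.0833). At least 2 copies were in 62 (16.8%), a ratio of 0.667 (0.511 to 0.872; Fisher exact test, adjusted p = 0.0181). That call was lost with 1 peak per 100 kb (0.725, Fisher exact test, adjusted p = 0.0950) and outside lncRNA genes (0.715, adjusted p = 0.161). With peaks of 200 bp or more, of which the Fra-1-only class had 72, the ratio turned to 1.23 (Fisher exact test, adjusted p = 0.922). The TEAD consensus was in 38 (10.3%) and did not pass, with an interval of the ratio from 0.597 to 1.18. The cyclic AMP response element was in 0 of 370 Fra-1-only peaks, which allows a share of up to 0.992% (upper exact 95% limit).

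**Figure D3:**
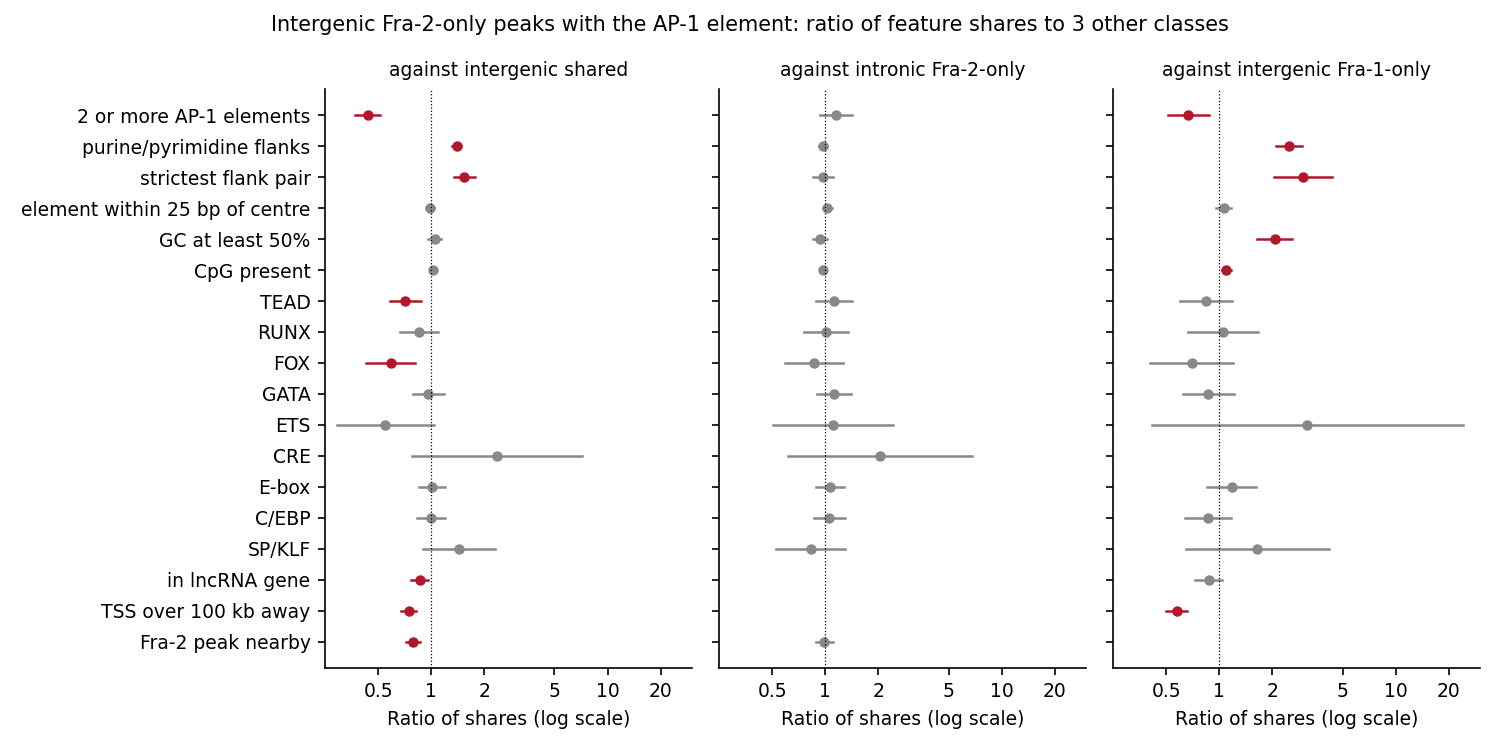
Ratio of the share of intergenic Fra-2-only peaks with each feature to that in shared intergenic, intronic Fra-2-only and intergenic Fra-1-only peaks (horizontal log axis). Points are ratios, lines are 95% log-normal intervals, and red marks an adjusted p below 0.05. Red points are 8 of 18, 0 of 16 and 6 of 17 in the 3 panels; the cyclic AMP response element has no point against Fra-1-only peaks, where it was not found.

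Fra-2-only sites lay closer to genes than shared sites. Their median distance to a protein-coding TSS was 40.9 kb (quartiles 14.2 and 108 kb), against 57.3 kb for shared and 88.2 kb for Fra-1-only intergenic peaks. A distance above 100 kb was found for 415 Fra-2-only (27.1%), 824 shared (36.5%) and 175 Fra-1-only peaks (47.3%). The ratio to shared peaks was 0.743 (0.674 to 0.820; Fisher exact test, adjusted p = 1.05e-08) and that to Fra-1-only peaks 0.574 (0.501 to 0.657; Fisher exact test, adjusted p = 3.06e-12). Between 1 and 10 kb from a TSS lay 301 Fra-2-only peaks (19.7%), 13.5% of shared peaks and 9.73% of Fra-1-only peaks.

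**Figure D4:**
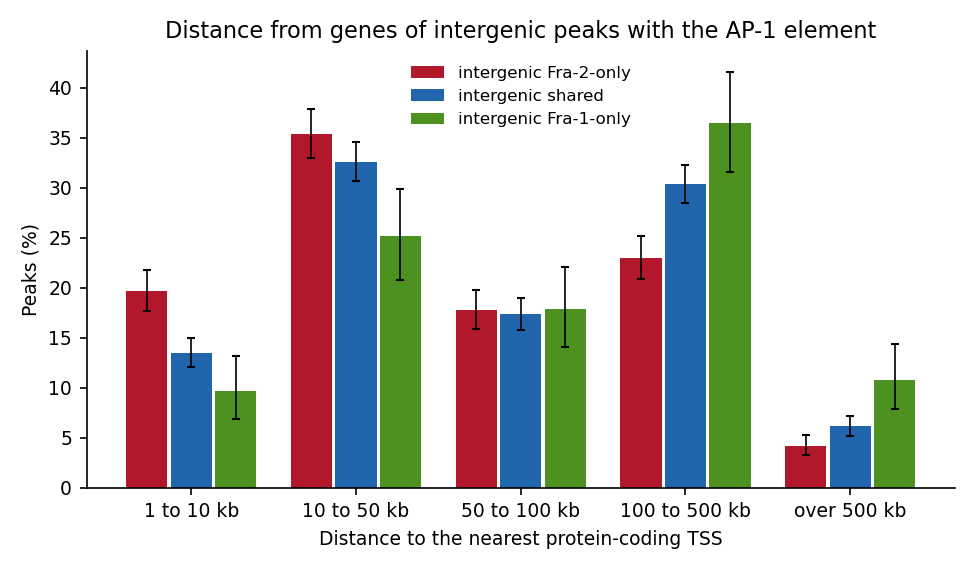
Distance of intergenic peaks with the element to the nearest protein-coding TSS (horizontal axis, 5 classes of distance), as a share of peaks in each class (%, vertical axis, from 0). Bars are shares and error bars 95% exact binomial intervals. Fra-2-only peaks have the highest shares below 50 kb and the lowest beyond 100 kb; from 50 to 100 kb the 3 shares are 17.8%, 17.4% and 17.8%.

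Gaps to the other list were close to those of intronic Fra-2-only peaks (median 57.3 kb) and of intergenic Fra-1-only peaks (54.6 kb). No gap from random positions was measured. The gap from a Fra-2-only peak to the nearest Fra-1 peak had a median of 52.75 kb (quartiles 13.8 and 183.9 kb), 84 (5.49%) had a Fra-1 peak within 1 kb and 959 (62.7%) within 100 kb. Just inside the limit of sharing no base, 3 peaks abutted a Fra-1 peak, 6 were 50 bp and 5 were 100 bp away. Just outside it, 17 otherwise similar peaks shared 50 bp with a Fra-1 peak and at least 410 shared 100 bp. The count of 410 leaves out peaks lying inside or around a Fra-1 peak with no edge in common. The nearest TSS inside the limit was 1002 bp away and the nearest outside 993 bp, the farthest copy of the element lay 96 bp from a centre, and 2 peaks held the element only beyond 100 bp. Of the 3786 intergenic Fra-2 peaks with the element, 40.4% were in the Fra-2 list only.

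Grouping was less common than among shared sites. Another Fra-2 peak lay within 12.5 kb of 466 Fra-2-only (30.5%) and 868 shared peaks (38.5%), a ratio of 0.792 (0.723 to 0.869; Fisher exact test, adjusted p = 2.76e-06). Among peaks 100 or 150 bp wide the shares were 29.2% and 30.3% and the difference did not pass (Fisher exact test, adjusted p = 0.812). Counting only each other, 1365 Fra-2-only peaks stood alone, 146 formed 73 pairs and 18 formed 6 trios. The sites of 1 trio were nearest to FBLIM1 or UQCRHL and those of another to LRRFIP2 or GOLGA4, while the others were nearest to CALML3, SMURF2, CLEC3B and PIM1. The trio near SMURF2, a ubiquitin ligase of the TGF-beta pathway, lay within 7.3 kb on chromosome 17, from 62660701 to 62668001, the nearest 2.351 kb from a TSS, with 1 Fra-1 peak in between. The one between FBLIM1, a filamin-binding adaptor, and UQCRHL spanned 8.35 kb on chromosome 1 with 0 Fra-1 peaks in between.

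No chromosome stood apart. By Fisher exact tests against shared intergenic peaks, 0 of 22 (0%) passed after adjustment and 2 had an unadjusted p below 0.05: chromosome 9 (1.53 times the share in the shared class, 1.07 to 2.19, unadjusted p = 0.0211) and chromosome 22 (1.75 times, 1.10 to 2.79, unadjusted p = 0.0193), both with an adjusted p of 0.232. Over all chromosomes there were 1.12 Fra-2-only and 1.66 shared peaks per Mb of eligible sequence. The Fra-2-only density ran from 0.504 per Mb on chromosome 4 to 2.71 on chromosome 22. The densest windows of 1 Mb held 7 Fra-2-only peaks each, among them chromosome 22 from 44000001 to 45000000, which had 4 Fra-1 and 11 Fra-2 peaks in all.

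**Figure D5:**
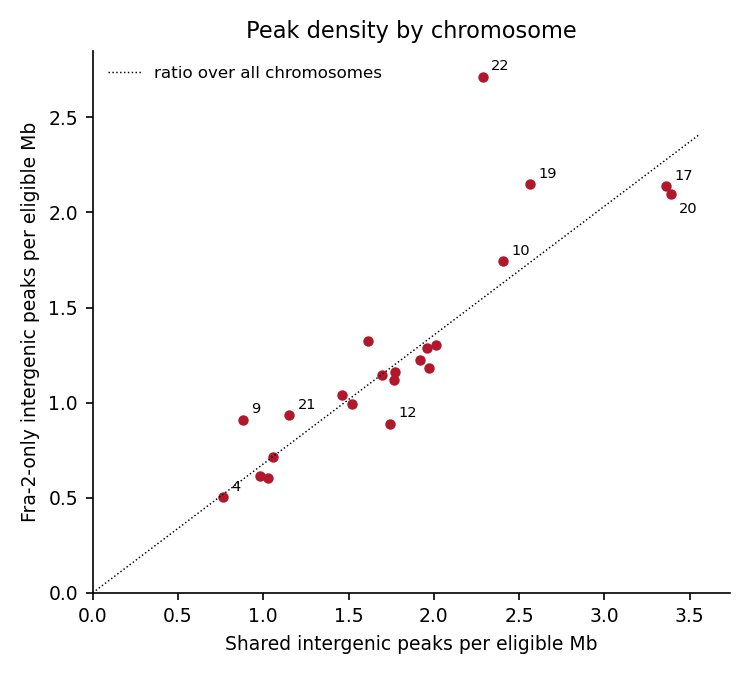
Fra-2-only (vertical axis) against shared (horizontal axis) intergenic peaks with the element, in peaks per Mb of eligible intergenic sequence, for 22 chromosomes. Points are chromosomes, some labelled with their number, and the dotted line is the ratio over all of them. The points follow the line, with chromosomes 22 and 9 above it.

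Long noncoding RNA genes were allowed by the choice of regions, and 388 Fra-2-only peaks (25.4%) lay in the body of one, against 667 shared peaks (29.6%), a ratio of 0.859 (0.772 to 0.956; Fisher exact test, adjusted p = 0.0182). The call was lost among peaks 100 or 150 bp wide (0.829, Fisher exact test, adjusted p = 0.0814), with peaks of 200 bp or more (0.886, adjusted p = 0.505) and in 2 further settings. They fell in 370 lncRNA genes. LINC01588 and LINC02542 held 4 each, and ERRFI1-DT, MEF2C-AS1, PTCSC2 and LINC02742 held 3 each.

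Some Fra-2-only elements lay in stretches that recur in the genome. No repeat annotation was used. The 21 bases around the element were found at 5 or more copies in the eligible sequence for 85 Fra-2-only peaks (5.56%). The same held for 61 shared (2.70%), 107 intronic Fra-2-only (6.86%) and 23 Fra-1-only peaks (6.22%), and for 14.2% of copies in no peak. These shares were not tested. An element followed within 20 bases by the word GCCTGTAAT, which is part of the Alu consensus, was found in 51 Fra-2-only peaks (3.34%, 2.49 to 4.36), 21 shared peaks (0.930%, 0.577 to 1.42), 72 intronic Fra-2-only peaks (4.62%) and 1 Fra-1-only peak, and at 2.03% of copies in no peak. This word was chosen after the windows had been seen and was not tested. The most frequent stretch of 21 bases around the element was the same in 11 Fra-2-only peaks and occurs at 284 copies in the eligible sequence. It reads as follows, with the element in capitals.
Recurrent stretch: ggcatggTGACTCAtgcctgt
Without the peaks whose element was followed by the word in this way, purine and pyrimidine flanks were in 65.2% of Fra-2-only and 47.1% of shared peaks (Fisher exact test, adjusted p = 2.76e-26).

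Of 19222 protein-coding genes on these chromosomes, 2692 (14.0%) had a Fra-2-only intergenic site within 100 kb of a TSS, and 994 (5.17%) had one and no Fra-1 peak in that range. Which gene a site acts on was not tested, and neighbouring genes share sites. The genes with most sites were AZIN1, which encodes an inhibitor of antizyme, with 7, SMURF2 and the transmembrane glycoprotein gene CDCP1 with 5 each, and SERPINB1, CAMK2G, TMEM217 and GPR157 with 4 each. H6PD has the same 4 sites as GPR157, PIM1 the same 4 as TMEM217, and MYLK4 and WRNIP1 the same 4 as SERPINB1, and such genes are counted once. AZIN1 (chromosome 8, 103838339 to 103906092) also had 3 Fra-1 peaks, and its nearest Fra-2-only site was 12.659 kb away. CDCP1 (chromosome 3, 45123769 to 45187914) had 7 Fra-1 and 12 Fra-2 peaks in all. NFATC2, a calcium-regulated transcription factor gene, had 3 sites, all upstream of its start on chromosome 20 at 1.106, 7.131 and 23.306 kb, and all 3 with A or G before and T after the element. It also had 11 Fra-1 peaks within 100 kb.

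Gene lists are read beside the 14.0% of all genes. Among targets of YAP, TAZ and TEAD, 10 of 20 had a Fra-2-only site within 100 kb, of proteases and their inhibitors 8 of 19, and of cytokines and chemokines 8 of 20. The AP-1 and ATF family, EGFR, RAS and MAPK genes, the TGF-beta pathway and ribosomal protein genes had 5 of 20 each, luminal breast genes 5 of 19, survival and death genes 4 of 18, and mesenchymal and basal genes 4 of 20 each. Cell cycle genes had 1 of 20, neuron markers 1 of 18, and blood cell and hepatocyte markers 1 of 19 each. Peaks of other classes lay near these genes too. Of the YAP, TAZ and TEAD targets, 18 of 20 had a Fra-1 peak and 20 of 20 any Fra-2 peak in reach. A Fra-1 peak was in reach of 15 of 19 protease, 15 of 20 cytokine, 15 of 20 mesenchymal and 7 of 20 cell cycle genes. The share of all genes with a Fra-1 peak in reach is not given here. Of 67 listed genes with a site, 11 had no Fra-1 peak in reach, beside 994 of 2692 over all genes with a site. The 11 were LATS2, TSLP, SPDEF, MUC1, SKIL, BMP4, TGIF1, AURKB, TNFRSF10A, PMAIP1 and G6PC1. Genes of these lists cluster, as AREG and EREG or IL1A and IL1B do, so that 1 site can count for several.

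Among the listed genes, PLAU, the urokinase gene on chromosome 10, had 3 Fra-2-only sites beside 6 Fra-1 peaks. They lay at 75647201 to 75647351, 75653301 to 75653401 and 75726001 to 75726201, and the same 3 are within reach of CAMK2G. Their gaps to the nearest Fra-1 peak were 0.2, 1 and 32.9 kb. DUSP5, an ERK phosphatase gene, had 3 sites from 50.414 to 80.339 kb away and 10 Fra-1 peaks. These sites lay 2.4 to 12.95 kb from the nearest Fra-1 peak. CSF1, the macrophage growth factor gene, also had 3, the widest of 350 bp at 110364801 to 110365151 on chromosome 1, which is 0.7 kb from a Fra-1 peak. HBEGF, an EGFR ligand gene, had 2 sites at 17.014 and 23.989 kb, with gaps to the nearest Fra-1 peak of 4.65 and 0.9 kb. BMP4, a ligand of the TGF-beta superfamily, had 2 sites on chromosome 14, at 54394101 to 54394201 and 54447001 to 54447151, with 0 Fra-1 peaks within 100 kb and the nearest Fra-1 peaks 84.2 and 128.4 kb from them. SKIL, which encodes a SMAD corepressor, likewise had 2 sites and 0 Fra-1 peaks, with gaps of 306.55 and 284.15 kb. SPDEF, a luminal transcription factor gene, had 1 site 4.466 kb from a TSS and 0 Fra-1 peaks, and that site was 315.85 kb from the nearest Fra-1 peak. TNC, LAMB3, NT5E and TIMP2, genes of matrix, adhesion and the cell surface, had 2 sites each. Gaps to the nearest Fra-1 peak were 0.05 and 0.95 kb for NT5E and 2.45 and 53.3 kb for TIMP2. For TNC they were 107.2 and 6.05 kb and for LAMB3 15.85 and 90.3 kb.

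The widest member, at 400 bp, lay on chromosome 6 from 4688301 to 4688701, 17.892 kb from CDYL, a chromatin corepressor gene, and 50.05 kb from the nearest Fra-1 peak. Next came peaks of 350 bp near DAW1, MB, BDH1, NENF and EPS8L3. Those near NENF and EPS8L3 were 0.7 kb from a Fra-1 peak, and those near DAW1, MB and BDH1 were 44.45, 40.3 and 11.4 kb away. At 300 bp, the site near the clock gene PER1 (chromosome 17, 8042751 to 8043051, 2.608 kb from a TSS) had no Fra-1 peak for 296.55 kb, and the one near GPC1, a heparan sulfate proteoglycan gene, lay 1.429 kb from a TSS and held 2 copies of the element. Of the 12 widest, 11 had A or G before the element and 8 had C or T after it. The windows of 3 of the widest peaks with no Fra-1 peak within 10 kb are given as examples, with the element in capitals. All 3 have T after the element when it is read as TGACTCA. The peak near MB met the same conditions but is not printed here, and it has G after the element.
CDYL chr6:4688426-4688576 (+): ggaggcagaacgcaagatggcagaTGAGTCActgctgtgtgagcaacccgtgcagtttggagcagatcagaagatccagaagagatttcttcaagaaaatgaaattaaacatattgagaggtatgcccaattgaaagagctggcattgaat
DAW1 chr2:228728051-228728201 (+): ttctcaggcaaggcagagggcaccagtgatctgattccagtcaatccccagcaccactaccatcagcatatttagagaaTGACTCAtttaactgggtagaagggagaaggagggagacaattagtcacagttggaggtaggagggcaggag
BDH1 chr3:197194101-197194251 (+): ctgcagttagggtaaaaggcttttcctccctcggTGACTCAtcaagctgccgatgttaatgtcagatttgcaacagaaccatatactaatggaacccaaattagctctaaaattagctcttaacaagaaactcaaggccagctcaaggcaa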

How the data were processed

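One deposited peak list per antibody was analysed for MDA-MB-231 cells, without the input. Bowtie2 and hg19 are named, per the submitters' processing notes. Which caller and threshold were used, whether the input entered and how replicates were combined is not given in the sources used here. Values deposited by the authors were other than counts or scores, namely the start and end of each peak in bp, without header. Every start was 1 above a multiple of 50, and starts were therefore taken as 1-based. No peak passed the end of its chromosome in GRCh37, whose sequence was used with GENCODE 44 lifted to GRCh37. The labels name 2 independent replicates, and none is separable in the lists. A narrow grid and a list cut at an unknown threshold can move a weak site out of either list.

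The member regions, the compared classes, the features and the 15 gene lists (299 entries, 292 matched on chromosomes 1 to 22) were chosen with earlier results of these data known. Members lay more than 1 Mb from any unsequenced run of at least 1 Mb. Windows reached 100 bases to either side of the centre. Each of 51 comparisons of a feature used a two-sided Fisher exact test with Benjamini-Hochberg adjustment and a threshold of 0.05, with exact (Clopper-Pearson) intervals for shares and log-normal intervals for ratios at 95%. Chromosomes were tested likewise over 22. Gene lists were counted without a test. Tiles as long as the windows and all copies of the element in the same intergenic space gave the background. Named genes were those nearest the 12 widest members, the 8 with most members within 100 kb (genes with the same set of members counted once, ties by shorter distance) and up to 2 with most members in each list, and genes in small counts were added after their values were seen. Repeat masking was planned as a feature, but the reference sequence marks no repeats and it was not run. The code was checked on simulated peaks of equal width, with a planted flank difference between Fra-2-only and shared peaks. That check held no Fra-1-only peaks and no difference in width. The software was scipy 1.17.1, numpy 2.4.6 and pandas 2.3.3 in Python 3.11.15, with matplotlib 3.10.9 for the plots. Only some of the window sequences are reported here.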

Additional observations from a re-analysis of the deposited data

How the results depend on the processing

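Against shared intergenic peaks, 6 to 8 features passed under every alternative run, of 18, or of 17 where the alternative itself fixes a feature: 7 of 17 with 1 copy of the element, 6 of 17 outside lncRNA genes and 6 of 17 in windows of 40 to 50% GC. These counts did not always cover the same features. Among peaks 100 or 150 bp wide, the calls for TEAD, FOX, lncRNA gene bodies and a nearby Fra-2 peak were lost. This setting left 1070 Fra-2-only and 633 shared peaks. GC of at least 50% and CpG presence passed there instead. The calls for purine and pyrimidine flanks, ATGACTCAT, at least 2 copies and a TSS over 100 kb away kept their direction and passed under each alternative run. Restricting all classes to peaks at least 200 bp wide left 459 member regions. Against intronic Fra-2-only peaks, 1 feature passed in windows of 40 to 50% GC, where CpG presence had a ratio of 0.939 (Fisher exact test, adjusted p = 0.0210). The number of genes with a member in reach was 362 at 10 kb, 1478 at 50 kb, 4608 at 200 kb and 1237 for the nearest gene only. Against Fra-1-only peaks at least 200 bp wide, the ratio for at least 2 copies reversed to 1.23, with 72 Fra-1-only peaks left, and an element within 25 bp of the centre passed at 1.36. Of 247 values of single features under alternatives, 228 stayed on their side of the threshold, 14 lost it, 4 gained it and 1 reversed. The 2 alternatives on single copies and on the Alu-like word were chosen after the data were seen. No paired analysis was possible because each antibody has 1 list. Leaving out a replicate could not be done for the same reason. The cause of these shifts was not tested, and depth limits cannot be given, as the lists hold no counts.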
